A study of Mus musculus with 18 samples.

Results

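The genes described here are 8 inducible or abundant heat shock chaperones and co-chaperones (Hspa1a, Hspa1b, Hspb1, Bag3, Dnajb1, Hsph1, Hsp90aa1 and Hspa8) and 2 cold-inducible RNA-binding genes (Cirbp and Rbm3). They were listed by symbol, and all 10 were found among the 24091 gene rows of the epididymal fat table and among the 51826 rows of the inguinal fat table. All 10 passed the filters on low values in both tables.

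Heat shock proteins bind unfolded proteins and help them refold, and many of their genes are switched on by heat shock factor 1, which binds repeats of a short sequence called the heat shock element. Cirbp and Rbm3 bind RNA and are induced by mild cooling, the opposite stimulus. Body temperature follows a daily cycle in mice, and members of both groups are known to follow it in several tissues.

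The study sequenced RNA from the fat of C57BL/6 mice kept for 24 weeks on 1 of 2 light schedules. Controls had a constant cycle of 12 h light and 12 h dark. Shiftwork mice had the same cycle on 4 days of each week and the reversed cycle on the other 3. There were 3 libraries in each of 6 groups: epididymal fat (eWAT), which is visceral, of both schedules at ZT3 and at ZT12, and inguinal fat (iWAT), which lies under the skin, of both schedules at ZT3. ZT is the number of hours since the lights came on under the control schedule. The labels give neither age nor sex, and do not say that the 3 libraries of a group came from separate animals, so the p-values measure only the spread between these libraries, which may be technical. Values are CPM (counts scaled to library size with edgeR's TMM factors) in eWAT and reads normalized by the authors in iWAT. A gene was called changed at an adjusted p under 0.05 (Benjamini-Hochberg over all genes tested), by edgeR's quasi-likelihood test in eWAT and by limma in iWAT. In bulk tissue, fewer cells of a type and less RNA per cell cannot be told apart.

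Total assigned reads ran from 20352008 to 72276733 per eWAT library, with ZT3 control replicate 1 the deepest, and from 28544338 to 55639501 per iWAT library. The 5 adipocyte markers (Adipoq, Plin1, Lep, Cidec, Retn) were present in all 18 libraries. Several libraries also held transcripts of other tissues. The 5 vas deferens markers (Akr1b7, Crisp1, Ptgs2, Myh11, Cnn1) summed to 18803 and 18029 CPM in ZT3 control replicates 1 and 3, against 62.8 to 290 CPM in the other 10 eWAT libraries, none of them with a marker missing. The 5 spermatid markers (Prm1, Prm2, Tnp1, Tnp2, Odf1) summed to 2875 CPM in ZT3 shiftwork replicate 3 and to at most 50.7 CPM elsewhere in eWAT, where 2 libraries had 1 marker at 0. The summed adipocyte markers were lowest in these same 3 libraries, at 4668 to 6819 CPM, against 9862 to 13397 CPM in the other 9. In iWAT 4 B cell markers (Cd79a, Cd79b, Ms4a1, Jchain) summed to 18070 and 29341 normalized reads in control replicates 1 and 2, against 431 in control replicate 3 and 114 to 929 in shiftwork. The 5 skeletal muscle markers (Ckm, Acta1, Myh4, Tnnt3, Mylpf) summed to 1543430 normalized reads in iWAT shiftwork replicate 1 and to 1404 to 21155 in the other 5. The main member values that these libraries move are given below with and without them. Without the 3 eWAT libraries only replicate 2 is left of the ZT3 controls, and replicates 1 and 2 of ZT3 shiftwork. Such eWAT values therefore rest on a single ZT3 control.

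The promoter stretches that hold heat shock or cold elements show how the members differ in sequence. Promoter windows (250 bases before to 50 after a start site) were taken from RefSeq, build GRCm38.p6, and 7 of the 10 genes matched (Hspa1a, Hspa1b, Hspb1, Bag3, Dnajb1, Hsph1 and Cirbp). Hspa1b, Hspb1 and Cirbp are shown from 250 bases before the start site to the base before it, and Bag3 and Hsph1 as 30 bases after it. They lie at chr17:34959239-34959488 (minus strand), chr5:135887669-135887918 (plus), chr10:80167589-80167838 (plus), chr7:128523603-128523632 (plus) and chr5:149636276-149636305 (minus). Capitals mark matches to heat shock elements (GAANNTTC or TTCNNGAA) or to the mild-cold response element known from the Cirbp promoter (TCCCCGCC), on either strand.
Hspa1b: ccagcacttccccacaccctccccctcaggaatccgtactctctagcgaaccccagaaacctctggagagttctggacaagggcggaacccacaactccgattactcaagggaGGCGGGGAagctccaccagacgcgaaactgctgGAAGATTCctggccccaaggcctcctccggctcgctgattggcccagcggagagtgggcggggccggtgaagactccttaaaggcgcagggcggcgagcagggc
Hspb1: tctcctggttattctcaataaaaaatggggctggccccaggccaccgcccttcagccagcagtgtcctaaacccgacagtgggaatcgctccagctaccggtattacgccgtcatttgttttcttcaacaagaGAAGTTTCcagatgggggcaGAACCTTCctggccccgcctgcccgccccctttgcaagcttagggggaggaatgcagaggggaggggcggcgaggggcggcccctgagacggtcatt
Cirbp: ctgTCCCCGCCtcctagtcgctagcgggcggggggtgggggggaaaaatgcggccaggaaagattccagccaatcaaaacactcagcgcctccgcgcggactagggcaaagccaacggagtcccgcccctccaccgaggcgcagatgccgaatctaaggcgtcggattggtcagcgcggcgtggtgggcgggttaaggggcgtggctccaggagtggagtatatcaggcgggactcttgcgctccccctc
Bag3: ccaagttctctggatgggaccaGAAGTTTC
Hsph1: gcagaTTCTGGAAAGTTCtcctcagtaggc

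The head-to-head heat shock motif GAANNTTC was found in 5 of the 7 genes, all of them chaperones, and in 7.86% of all 32851 RefSeq promoter windows. Counted by window, as that share is, 6 of the 10 windows of these 7 genes held it. In Hspa1a and Hspa1b it began at base -104, and these windows were identical at 296 of 300 bases. Hspb1 held it at -117 and -97, Bag3 at 43 after the start. Hsph1, with 2 listed start sites, was the only gene with the 3-unit motif (GAANNTTC followed by NNGAA), which 0.603% of windows hold and which contains the 2-unit motifs. It also held TTCNNGAA (8.52% of windows), which the other 6 genes with a window did not hold. The mild-cold element TCCCCGCC was found in 5 of the 7 genes, namely Cirbp (at -247), Bag3, Dnajb1, Hspa1a and Hspa1b, and in 5.38% of windows. By window it was in 5 of the 10. In Cirbp and Dnajb1 it was in the window of a single start site, in Dnajb1 at 35 after the start. A match describes these letters only, and an absent match says only that the letters are not in the window.

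**Figure D1:**
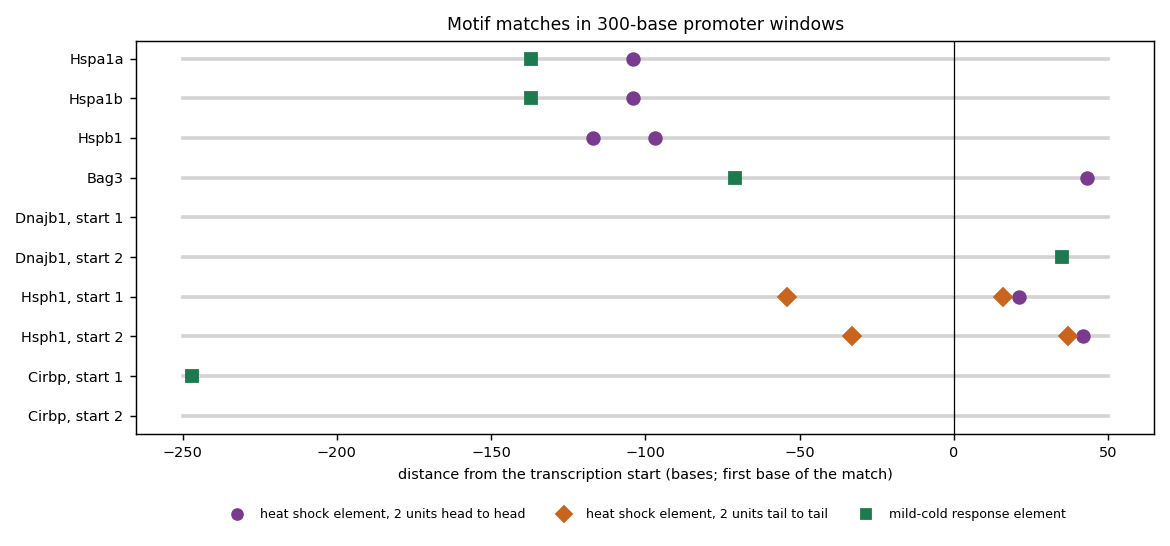
Positions of motif matches (first base, in bases from the start site) in the RefSeq promoter windows of 7 genes, 1 line per start site; circles and diamonds are 2-unit heat shock elements and squares the mild-cold response element. Heat shock motifs lie at -104 in both Hspa1 genes and at -117 and -97 in Hspb1. The first Cirbp window holds the cold element at -247, and neither Cirbp window holds a heat shock motif.

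Levels per length ranked the members. In eWAT ZT12 controls, the constitutive Hsp70 Hspa8 stood highest at 46.1 ± 2.64 FPKM (SD, n = 3, here and for the other levels), followed by Bag3, a co-chaperone that exchanges nucleotide on Hsp70, at 29.2 ± 1.08 FPKM. Hsp90aa1 (15.5 ± 1.44), Cirbp (15.1 ± 0.395) and Hspb1 (14.9 ± 0.987) did not differ beyond their spread, nor did Hsph1 (10.2 ± 0.967) and Dnajb1 (10.1 ± 0.345). Rbm3 followed at 5.10 ± 0.473 FPKM, and the stress-inducible Hspa1b and Hspa1a were lowest at 1.27 ± 0.128 and 0.748 ± 0.268 FPKM. In iWAT ZT3 controls, a table normalized separately, Cirbp (34.5 ± 12.0 RPKM), Hspa8 (32.7 ± 6.87) and Bag3 (30.2 ± 3.69) led with overlapping spreads. Hspa1b (1.117 ± 0.311) and Hspa1a (0.611 ± 0.162) were again lowest.

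**Figure D2:**
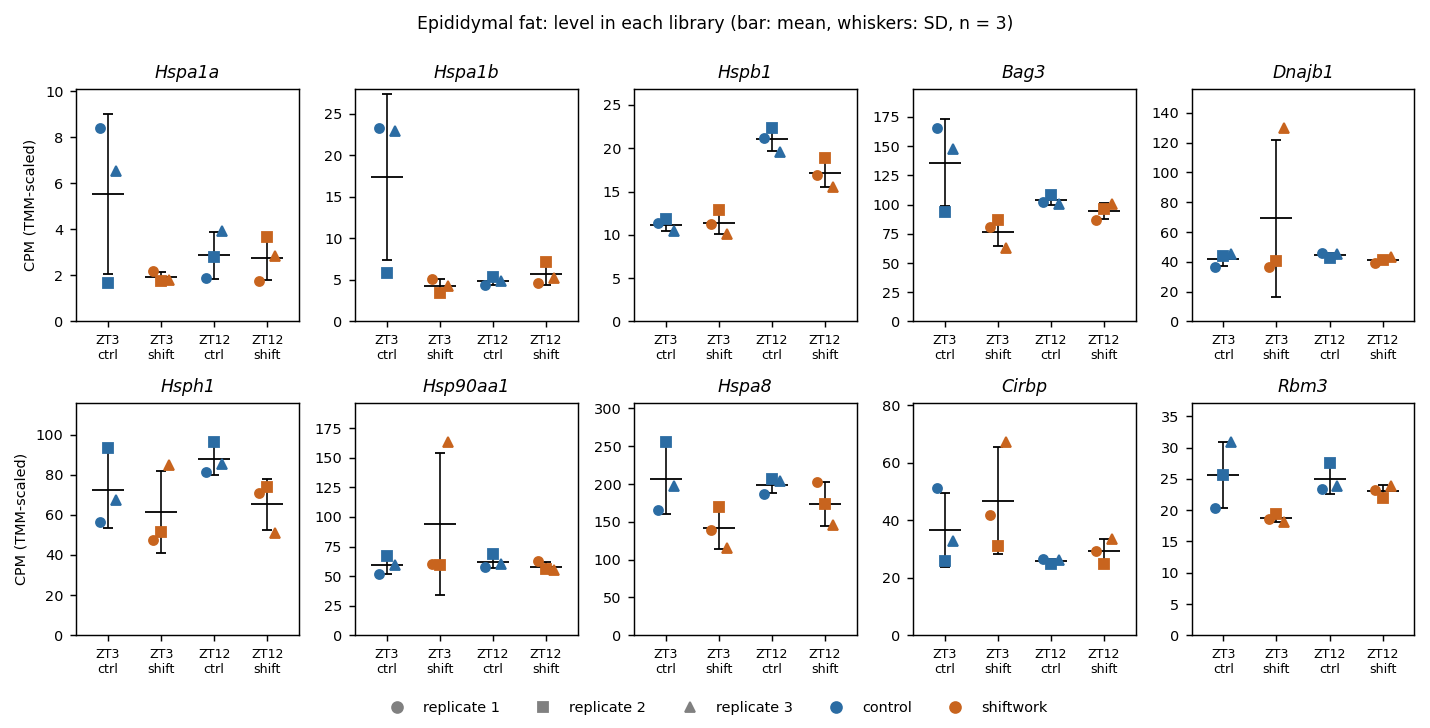
CPM of each gene in the 12 eWAT libraries by group (ctrl, control; shift, shiftwork); symbols mark the replicate number, bars the mean and whiskers the SD (n = 3). Hspb1 is higher at ZT12 than at ZT3 on both schedules, Hspa1b stands apart in ZT3 control replicates 1 and 3, and Dnajb1 and Hsp90aa1 stand apart in ZT3 shiftwork replicate 3.

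Hspb1, a small heat shock protein that holds unfolded clients and binds actin (chr5:135887919-135889563, plus strand, as the deposited table gives it), was the only member called in any comparison. In controls it measured 11.3, 11.8 and 10.4 CPM at ZT3 and 21.2, 22.4 and 19.6 CPM at ZT12. The groups did not overlap, and the gene rose by 0.91 ± 0.13 (log2, SE), or 1.88-fold, with an edgeR adjusted p of 0.0168. In this comparison 3.69% of the 15141 genes tested were called, 443 higher and 116 lower, and 32.9% had groups that did not overlap. DESeq2 also called it (adjusted p = 8.27e-09). The 5 macrophage markers (Adgre1, Cd68, Csf1r, Mrc1, Cd14) moved in the same comparison: 5 of 5 were higher at ZT12 and 2 of them were called (median 1.28). They summed to 376, 481 and 373 CPM in ZT3 controls and to 967, 1173 and 599 CPM in ZT12 controls, with no marker at 0. Their part in the Hspb1 value was not tested. Neither ZT3 control replicate with vas deferens markers stood apart for Hspb1. Without all 3 libraries that held other tissues, which leaves a single ZT3 control, the rise was 0.80. The call was lost without ZT3 control replicate 3 (adjusted p = 0.0900), ZT12 control replicate 1 (0.0928) or ZT12 control replicate 2 (0.0676), with values of 0.83 to 0.94 over all single left-out libraries.

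On the shiftwork schedule Hspb1 measured 11.2, 12.8 and 10.2 CPM at ZT3 and 17.0, 18.8 and 15.6 CPM at ZT12. Again the groups did not overlap, but the difference of 0.59 ± 0.13 missed the threshold in edgeR (adjusted p = 0.280) and passed it in DESeq2 (0.00588). The macrophage markers were again higher in 5 of 5 (median 0.92, none called by edgeR), with sums of 359 to 654 CPM at ZT3 and 747 to 1309 CPM at ZT12. Of all genes tested, 0% were called by edgeR in shiftwork ZT12 against ZT3, 2461 had an unadjusted p under 0.05, and DESeq2 called 296. At ZT12 all 3 shiftwork libraries lay below all 3 controls (-0.30 ± 0.13, adjusted p = 1). The change with time did not differ between schedules past the threshold (-0.33 ± 0.19, adjusted p = 0.533). By this interaction test edgeR called 0% of genes, with 1535 at an unadjusted p under 0.05, and DESeq2 called 192. Of the 51-base windows of the Hspb1 transcript, 51.5% also occur in the pseudogene Hsp25-ps1, so its counts are uncertain where the counting splits or drops such reads. Hsp25-ps1 itself stood at 3.1 to 14.1 normalized reads in iWAT.

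Hspa1b and Hspa1a encode the stress-inducible Hsp70 and lie side by side on chromosome 17 (chr17:34956429-34959238 and chr17:34969359-34972156, minus strand). Hspa1b measured 23.3, 5.89 and 22.997 CPM in ZT3 controls, 5.13, 3.40 and 4.33 in ZT3 shiftwork, 4.42, 5.34 and 4.93 in ZT12 controls and 4.68, 7.13 and 5.20 in ZT12 shiftwork. Replicates 1 and 3 of the ZT3 controls, the libraries with vas deferens markers, were thus several times higher than every other library, and ZT3 control replicate 2 lay within the range of the rest. Hspa1a measured 8.40, 1.66 and 6.54 CPM in ZT3 controls, 1.75 to 2.18 CPM in ZT3 shiftwork and 1.74 to 3.91 CPM at ZT12. The same 2 replicates were highest, but ZT3 control replicate 2 was the lowest of all 12 libraries, so that these groups overlapped at ZT3.

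At ZT3 the shiftwork libraries were all below the controls for Hspa1b (-2.02 ± 0.45, edgeR adjusted p = 0.189), and DESeq2 called it (adjusted p = 0.00177). Without the 3 libraries with other tissues, replicate 2 was the only ZT3 control left. The Hspa1b difference was then -0.48 ± 0.33, and for Hspa1a it turned from -1.54 to 0.23. Without ZT3 control replicate 2 alone, edgeR called Hspa1b (-2.45, adjusted p = 0.00111), Hspa1a (-1.99, 0.0349) and Bag3 (-1.05, 0.00604). The comparison of ZT12 with ZT3 in controls shares these ZT3 libraries and gave -1.83 ± 0.45 for Hspa1b (adjusted p = 0.0520), or -0.31 without the 3 libraries. The schedule by time interaction was 2.23 ± 0.62 (adjusted p = 0.419), or 0.70 ± 0.40 without them. Of the Hspa1b 51-base windows 62% occur in Hspa1a too, so the split between the copies is uncertain, and their sum gave -1.89 (adjusted p = 0.194) at ZT3. The vas deferens markers' part in these values was not tested.

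**Figure D3:**
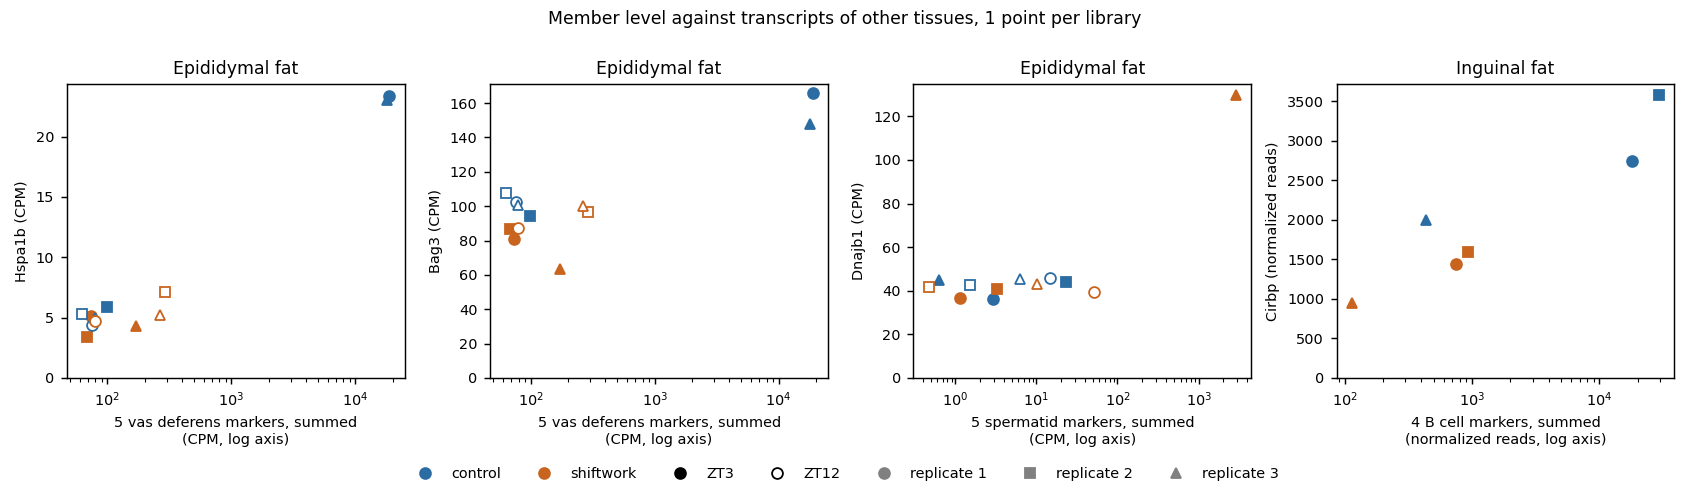
Levels of Hspa1b, Bag3, Dnajb1 (CPM, eWAT) and Cirbp (normalized reads, iWAT) against the summed level of 4 (B cell) or 5 marker genes of another tissue (log axis), 1 point per library. Hspa1b and Bag3 are highest in the 2 libraries with vas deferens markers at 18803 and 18029 CPM, Dnajb1 in the library with spermatid markers at 2875 CPM, and Cirbp in the 2 iWAT controls with the most B cell markers.

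Bag3 (chr7:128523583-128546979, plus strand) measured 166, 94.1 and 148 CPM in ZT3 controls and 80.7, 86.9 and 63.2 CPM in ZT3 shiftwork. The groups did not overlap, at -0.82 ± 0.19 (edgeR adjusted p = 0.194; DESeq2 adjusted p = 0.00339). The highest controls were again replicates 1 and 3, and without the 3 libraries, with a single ZT3 control left, the difference was -0.18 ± 0.12. At ZT12 the values were 102.4, 107.8 and 100.4 CPM in controls and 87.1, 96.3 and 100.2 CPM in shiftwork, which differed by -0.13 ± 0.19.

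Over all members, edgeR called none between schedules in eWAT. At ZT3 it called 0% of all genes (2847 with an unadjusted p under 0.05, 5 of them members; DESeq2 called 662 genes, 2 of them members), and 12% of genes did not overlap between groups. In all, 3 members did so, all lower in shiftwork, namely Hspa1b, Bag3 and Rbm3. At ZT12 it again called 0% (355 with an unadjusted p under 0.05, 1 of them a member; DESeq2 called 13 genes and no member), and 12.5% of genes did not overlap. There 3 members did so, all lower in shiftwork: Hspb1, Bag3 and Hsph1. The members' median difference was -0.34 at ZT3 and -0.11 at ZT12, beside 0.06 and -0.0043 over all genes.

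Hsph1, an Hsp110 that releases nucleotide from Hsp70 (chr5:149616845-149636315, minus strand), measured 81.1, 96.5 and 85.2 CPM in ZT12 controls and 71.1, 74.1 and 50.8 CPM in ZT12 shiftwork (-0.42 ± 0.25, edgeR adjusted p = 1). At ZT3 it measured 56.4, 93.1 and 67.2 CPM in controls and 47.6, 51.6 and 84.8 CPM in shiftwork, where the spermatid-marker library was highest. Its ZT3 difference was -0.23 ± 0.25 in all libraries. Without the 3 libraries it was -0.92 ± 0.21, where the single ZT3 control left was the highest, at 93.1 CPM.

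Dnajb1, an Hsp40 that delivers clients to Hsp70 (chr8:83608175-83612653, plus strand), measured 36.9, 40.6 and 130 CPM in ZT3 shiftwork and 36.3 to 45.7 CPM in the other 9 libraries. Hsp90aa1, the inducible Hsp90 (chr12:110691036-110696395, minus strand), followed the same pattern, at 60.5, 59.1 and 164 CPM in ZT3 shiftwork and 51.6 to 68.3 CPM elsewhere. For both genes the high value came from replicate 3, the library with spermatid markers, and without the 3 libraries the ZT3 difference turned from 0.73 to -0.20 for Dnajb1 and from 0.67 to -0.18 for Hsp90aa1. Hspa8 (chr9:40801273-40805199, plus strand) measured 165, 256 and 197 CPM in ZT3 controls and 140, 169 and 115 CPM in ZT3 shiftwork. These groups overlapped (-0.54 ± 0.20, edgeR adjusted p = 0.218). Without the 3 libraries the difference was -0.74, where the single ZT3 control left was the highest. The Hspa8 difference of ZT12 against ZT3 in controls then went from -0.05 to -0.40. Of their 51-base windows, 58.3% for Hsp90aa1 and 74.6% for Hspa8 occur in transcripts of other genes, so their counts too are uncertain.

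The cold-inducible genes did not move together in eWAT. Cirbp (chr10:80167841-80171653, plus strand) measured 51.0, 26.0 and 32.9 CPM in ZT3 controls, 41.9, 31.1 and 67.3 in ZT3 shiftwork, 26.5, 24.9 and 26.1 in ZT12 controls and 29.4, 24.7 and 33.3 in ZT12 shiftwork. Its spread was wider at ZT3 than at ZT12, its highest value again in the spermatid-marker library, and the ZT12 against ZT3 differences of -0.51 ± 0.30 in controls and -0.68 ± 0.30 in shiftwork missed the threshold (adjusted p = 0.361 and 0.300). Without the 3 libraries, with a single ZT3 control left, they were -0.0477 ± 0.20 and -0.35 ± 0.15. Between schedules at ZT3 Cirbp differed by 0.35 ± 0.30 in all libraries and by 0.48 without the 3. Rbm3 (chrX:8138975-8145880, minus strand) measured 20.4, 25.6 and 31.0 CPM in ZT3 controls and 18.5, 19.4 and 18.2 CPM in ZT3 shiftwork. These groups did not overlap (-0.45 ± 0.15, edgeR adjusted p = 0.214), and the value was -0.45 without the 3 libraries, against a single control.

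**Figure D4:**
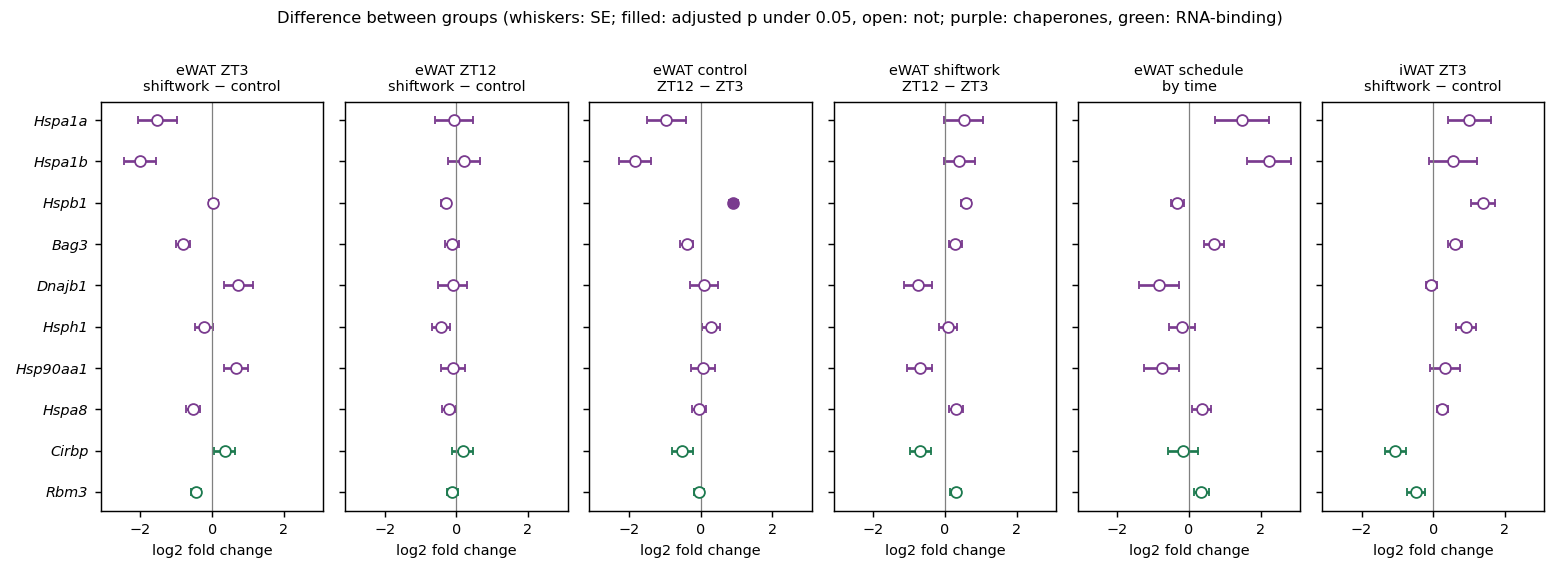
Log2 fold change of each gene (points; whiskers, SE) in the 5 eWAT comparisons (edgeR) and the iWAT comparison (limma); filled points have an adjusted p under 0.05. Hspb1 in control ZT12 against ZT3 (0.91) is the only filled point.

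In shiftwork ZT12 against ZT3, 16.6% of all genes had groups that did not overlap. Among members Hspb1, Bag3 and Rbm3 did so, all higher at ZT12. In the control comparison, where 32.9% of all genes had groups that did not overlap, Hspb1 was higher and Hspa1b lower without overlap.

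In iWAT at ZT3, shiftwork libraries stood above controls for Hspb1, Hsph1, Bag3 and Hspa8 and below them for Cirbp, each without overlap, beside 12.9% of all genes. None was called by limma, which called 0% of the 16387 genes tested, with 1094 at an unadjusted p under 0.05, 4 of them members. The edgeR test on reads recovered from the normalized values also called 0 genes.

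Hspb1 measured 455, 342 and 338 normalized reads in iWAT controls and 811, 718 and 1624 in shiftwork (1.39 ± 0.34, limma adjusted p = 0.688). In the authors' deposited table its log2 fold change was 1.39 with an adjusted p of 0.0273. Hsph1 measured 1229, 1313 and 1029 normalized reads in controls and 2101, 1611 and 3325 in shiftwork (0.92 ± 0.28, limma adjusted p = 0.688). For both genes shiftwork replicate 3 was highest, as it was for Hspa1b (78.6, 89.9 and 390 in shiftwork, 107, 64.8 and 126 in controls). Without that library the Hspa1b difference turned from 0.55 to -0.18, Hspb1 stood at 1.02 and Hsph1 at 0.63. Hspa1a measured 57.6 ± 18.4 normalized reads (SD, n = 3) in controls and 135 ± 103 in shiftwork, groups that overlapped (1.01 ± 0.59, limma adjusted p = 0.689), again with replicate 3 the highest at 253. The macrophage markers were higher in 5 of 5 in iWAT shiftwork (median 0.76, none called), and their sum too was highest in replicate 3, at 47409 normalized reads against 17005 to 34178 in the other 5 libraries. Their part in these values was not tested.

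Bag3 measured 2306, 2029 and 3011 normalized reads in iWAT controls and 4187, 3260 and 3678 in shiftwork (0.61 ± 0.20, limma adjusted p = 0.688). Its highest value was in shiftwork replicate 1, the library with skeletal muscle markers, without which the difference was 0.52 ± 0.23. Hspa8 was at 3796 to 4953 in controls and 4954 to 5565 in shiftwork, groups that all but met, while Dnajb1 (-0.06 ± 0.15) and Hsp90aa1 (0.32 ± 0.42) overlapped. Without shiftwork replicate 1, Hsp90aa1 stood at 0.71 ± 0.34, Hspb1 at 1.53, Hsph1 at 0.97, Hspa1b at 0.96 and Cirbp at -1.13, and limma again called no member.

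Cirbp measured 2743, 3580 and 1994 normalized reads in iWAT controls and 1443, 1590 and 950 in shiftwork (-1.06 ± 0.29, limma adjusted p = 0.688). The authors' deposited table gives -1.01 with an adjusted p of 0.108. Rbm3 measured 938, 1316 and 705 in controls and 650, 713 and 684 in shiftwork, groups that overlapped (-0.49 ± 0.25). The 2 controls with B cell markers were the highest for both genes. Without them, with a single control left, Cirbp differed by -0.62 ± 0.37, Rbm3 by -0.05 ± 0.22, Bag3 by 0.29 ± 0.24 and Hspb1 by 1.54 ± 0.54. The part of the B cell markers in these values was not tested.

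**Figure D5:**
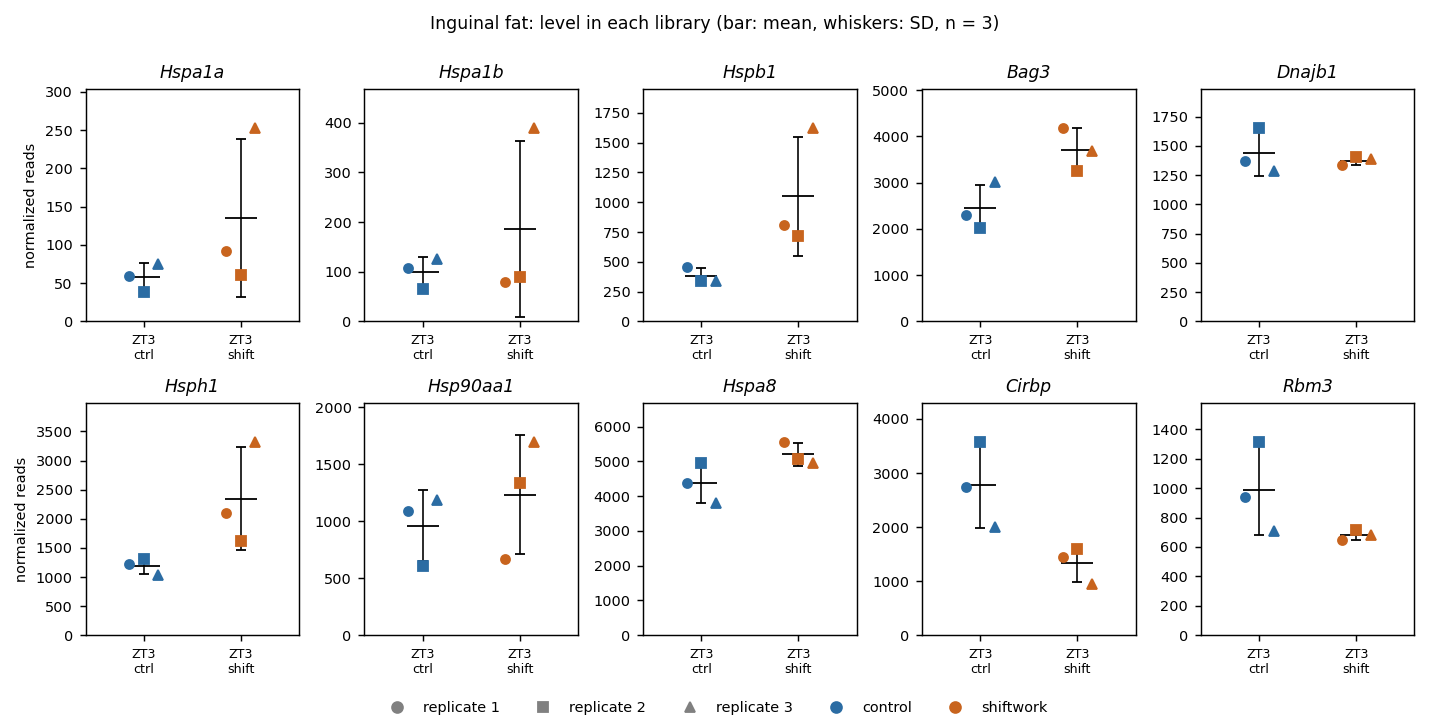
Normalized reads of each gene in the 6 iWAT libraries (ctrl, control; shift, shiftwork); symbols mark the replicate number, bars the mean and whiskers the SD (n = 3). Hspb1, Hsph1 and Bag3 are higher in all 3 shiftwork libraries and Cirbp lower, and shiftwork replicate 3 is highest for Hspa1a, Hspa1b, Hspb1 and Hsph1.

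Related gene groups were counted from lists drawn up by function. In iWAT, where no list member was called, 13 of 13 endoplasmic reticulum chaperones stood higher in shiftwork (median 0.38, beside 0.02 over all genes). Among them were the collagen chaperone Serpinh1 (1.07 ± 0.37) and Hspa5 (0.56 ± 0.35), the main Hsp70 of that compartment. Of other cytosolic chaperones 29 of 37 were higher (median 0.19), with Cryab, a small heat shock protein, at 3815 and 6582 mean normalized reads in control and shiftwork (0.79 ± 0.19, limma adjusted p = 0.688). Cryab was highest in shiftwork replicate 1 (7326), the library with skeletal muscle markers, and those markers were higher in 5 of 5 in shiftwork (median 4.59, none called). Without that library Cryab differed by 0.71 ± 0.23, and the cytosolic list was higher in 28 of 37 (median 0.15). The mitochondrial chaperones were higher in 7 of 7 (median 0.19) and the chaperonin CCT and prefoldin subunits in 11 of 14 (median 0.10). Several of these subunits were high in shiftwork replicate 3 only. Cct3 measured 3344, 2996 and 5702 normalized reads in shiftwork and 3232 to 4043 in controls. Cct5 measured 5129, 4556 and 7503 in shiftwork and 4846 to 6095 in controls. Pfdn1 was instead highest in shiftwork replicate 1, at 1514. The mitochondrial list turned to mostly lower without the controls with B cell markers, as given below, with a single control left. Heat shock factors and their binding proteins were higher in 4 of 4 tested, and other heat-inducible genes in 7 of 8 (median 0.66), including Atf3 (1.63 ± 0.49).

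The RNA-processing lists lay on the other side in iWAT. CLK kinases and splicing factors sensitive to temperature were lower in 15 of 15 (median -0.27), among them Clk2 (-0.48 ± 0.18), a kinase of splicing factors. Other small RNA-binding proteins were lower in 10 of 11 (median -0.24), with Rbm5 at -0.45 ± 0.15. Without shiftwork replicate 3 the endoplasmic reticulum list was higher in 9 of 13 (median 0.06), and that library also had the highest sum of macrophage markers. Without shiftwork replicate 1, the library with skeletal muscle markers, the endoplasmic reticulum list was higher in 13 of 13 (median 0.59), the splicing list lower in 15 of 15 (median -0.15) and the other RNA-binding proteins lower in 8 of 11 (median -0.0909). Without the 2 controls with B cell markers, with a single control left, the splicing list was lower in 13 of 15. The mitochondrial list turned from higher in 7 of 7 to lower in 6 of 7. Signs were then mixed among the other small RNA-binding proteins. Elavl1 stood at 2010 normalized reads in that control and 2110 to 2641 in shiftwork, and Rbm5 at 4111 and 3075 to 3703.

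In eWAT the splicing list was lower at ZT12 in 11 of 15 genes in controls (median -0.18) and 14 of 15 in shiftwork (median -0.16), beside all-gene medians of -0.01 and -0.03. Other small RNA-binding proteins were lower in 10 of 11 in each. CCT and prefoldin subunits were lower in 13 of 14 in each, with medians of -0.14 in controls and -0.10 in shiftwork. These counts include the ZT3 libraries with other tissues. Tcp1 measured 218, 250 and 699 CPM in ZT3 shiftwork, highest in the spermatid-marker library, and 212 to 235 at ZT12. Cct7 measured 109, 126 and 206 CPM, and 111 to 118 at ZT12. Cct6a was instead lowest in that library, at 154 CPM. Between schedules at ZT3, Hspb6, a small heat shock protein of smooth muscle, measured 143, 30.7 and 111 CPM in controls and 23.6 to 28.8 in shiftwork (-1.84 ± 0.43, adjusted p = 0.194), again high in the libraries with vas deferens markers.

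Over the 12 eWAT libraries the genes whose log2 CPM was most like that of Hspa1b, among 12095 searched, were Ank1 and Ptgs2 (Pearson r = 0.98 each), then Clint1, Mylk and Crisp1 (0.97 each). Ptgs2 and Crisp1 are themselves on the vas deferens list, and the points share the libraries that stand apart. In the 6 iWAT libraries the same genes gave 0.99 for Ptgs2, 0.01 for Ank1, 0.12 for Clint1 and -0.64 for Mylk. There Ptgs2 and Hspa1b were both highest in shiftwork replicate 3, Ptgs2 at 81.2 normalized reads against 8.50 to 23.3 in the other 5 libraries. For Cirbp the most alike were Gpc2 (0.96), Tceal1 (0.95), Rsph3b (0.95), Zfp523 (0.93) and Col4a3 (0.93), with iWAT values between -0.53 and 0.39. All 5 genes, like Cirbp, were highest in the eWAT library with spermatid markers, Col4a3 at 29.3 CPM against at most 8.72 in the other 11 libraries.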

How the data were processed

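RNA was sequenced from 12 eWAT and 6 iWAT libraries, 3 per group, as single reads from an mRNA kit per the labels' protocols. Per the submitters' processing notes, the tools used included edgeR, limma, DESeq2, HTSeq and STAR, with the builds mm10 and GRCm38. Versions, roles and the strand setting are not given in the sources used here.

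The authors deposited read counts per gene for eWAT, and log2 FPKM values, from which FPKM was computed as 2 to the value less an offset of 0.1. For iWAT the authors deposited size-factor-normalized reads (a signal, not whole counts) and RPKM, with gene lengths, and a deposited table of the authors' own log2 fold changes and p-values. All 144100 non-zero iWAT values came out as whole reads within 1e-06.

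eWAT counts were tested with edgeR 4.0.16 (TMM, filterByExpr with a minimum count of 10, 4 group means in 1 fit of 15141 genes), and iWAT values with limma 3.58.1 on log2(value + 1), kept at 10 or more in 3 libraries, in R 4.3.3. iWAT fold changes are therefore on the log2(value + 1) scale. The 2 tables were normalized separately and tested only within themselves. DESeq2 1.42.0, other size factors, no filter, another pseudocount, recovered reads, a replicate block and leaving out libraries were the alternatives. The tests were checked on data simulated from the real means. That simulation gave all genes the same dispersion and gave no single library transcripts of other tissues. It therefore cannot show how such libraries move the calls. Each eWAT ZT12 control library deviated most like the ZT12 shiftwork library of its number. These correlations were weak (0.31, 0.132 and 0.203), and the labels do not say that libraries are paired. Between schedules at ZT12 neither the main fit nor the block called a gene. Named genes were the 10 listed, list genes past the test, up to 3 of smallest p per list and comparison, and the 5 most alike. Members and lists were chosen with earlier results of these data known. From 2 lists, 1 gene each is not reported here and was left out of the counts and sums.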

Additional observations from a re-analysis of the deposited data

Results flagged for a closer look

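Bag3 moved in opposite directions in the 2 depots at ZT3. Every eWAT shiftwork library was below every control (-0.82 on the log2 scale), and every iWAT shiftwork library was above every control (0.61). The difference between depots was not tested, since the tables were normalized separately. The eWAT value was -0.18 without the 3 libraries with vas deferens or spermatid markers. The iWAT value was 0.29 without the 2 controls with B cell markers. Each of these values rests on a single control.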

How the results depend on the processing

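DESeq2 called more genes than edgeR in all 5 eWAT comparisons: 662 (ZT3 schedules), 13 (ZT12 schedules), 2213 (ZT12 against ZT3, controls), 296 (the same, shiftwork) and 192 (interaction). Of the members it called 2, 0, 2, 1 and 0. The 559 genes called in controls between times became 320 with no filter on low counts. Leaving out the 3 ZT3 libraries with other tissues, chosen after seeing the data, gave 9 calls between schedules at ZT3, 75 between times in shiftwork and 7 for the interaction.

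Leaving out those 3 libraries turned 13 member differences. At ZT3 these were Hspa1a (0.23), Dnajb1 (-0.20) and Hsp90aa1 (-0.18). Between times in controls they were Hspa1a (0.75), Bag3 (0.10), Dnajb1 (-0.0203), Hsph1 (-0.13) and Hsp90aa1 (-0.15), and in shiftwork Dnajb1 (0.0718). For the interaction they were Hspa1a (-0.29), Dnajb1 (0.0922), Hsph1 (0.50) and Hsp90aa1 (0.0852). Without the 2 iWAT controls with B cell markers, also chosen after seeing the data, Dnajb1 (0.0943) and Hsp90aa1 (-0.0485) turned. Apart from the libraries left out, the cause was not tested.

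Leaving out 1 library at a time gave 0 to 403 calls between schedules at ZT3 (403 without control replicate 2), 1 to 2744 between times in controls (2744 without ZT3 shiftwork replicate 3, 1 without ZT12 control replicate 1, 3 without ZT3 control replicate 3, 4 without ZT12 control replicate 2), 0 to 186 for the interaction and 0 to 360 in iWAT (360 without control replicate 3). Members called ran from 0 to 3 in the ZT3 and the control time comparisons and from 0 to 1 for the interaction, where Hspa1b passed without ZT3 control replicate 2 (2.66, edgeR adjusted p = 0.00731). Signs turned within these ranges. At ZT3 they were -0.0695 to 0.0984 for Hspb1, -0.11 to 1.04 for Dnajb1 and -0.0203 to 0.67 for Cirbp, and at ZT12 -0.32 to 0.24 for Hspa1a. Between times in controls they were -0.0297 to 0.14 for Hsp90aa1, -0.19 to 0.12 for Hspa8 and -0.18 to 0.0893 for Rbm3, and in shiftwork -0.0812 to 0.39 for Hsph1 and -1.07 to 0.0839 for Dnajb1. For the interaction they were -0.49 to 0.20 for Cirbp, -1.14 to 0.0086 for Dnajb1 and -0.39 to 0.13 for Hsph1, and in iWAT -0.13 to 0.0511 for Dnajb1 and -0.18 to 0.96 for Hspa1b.

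With the replicate number as a block, 298 genes were called between times in controls and 0 in the other comparisons. Hspb1 kept its call (0.91, edgeR adjusted p = 0.0220). The labels give libraries of the same number nothing else in common, in the eWAT ZT12 groups as elsewhere.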

Other observations

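The ZT3 shiftwork library with spermatid markers also held the highest levels of several chaperones outside the 10 genes, chosen here after their values were seen. Hspa1l, an Hsp70 of the testis, measured 196 CPM there and 2.45 CPM or less in the other 11 eWAT libraries. Hspa2, another Hsp70 of male germ cells, measured 448 CPM there and 20.3 to 43.0 CPM in the others, and Hspa4l measured 402 CPM against 21.8 to 35.0 CPM. Clpb, a mitochondrial disaggregase, measured 247 CPM there and 43.9 to 63.7 CPM in the others.

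The 18 immediate early genes listed beside the members (Fos, Egr1 and others) summed to 823, 1854 and 1680 CPM in ZT3 controls and to 825, 865 and 698 CPM in ZT3 shiftwork. Egr1 alone measured 33.9, 454 and 409 CPM in the ZT3 controls. Its high libraries were replicates 2 and 3, whereas Hspa1b was high in replicates 1 and 3.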
